A study of Mus musculus with 10 samples.

Results

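The Ly49 receptors studied here are the products of Klra1, Klra3, Klra5, Klra7, Klra8, Klra9 and Klra22. They were followed through the 7 probe sets that the platform annotation gives to these genes, of 45037 probe sets on the Affymetrix arrays. Of the 7 probe sets, 5 belong to 1 gene each, namely Klra8, Klra5, Klra1 and a pair for Klra7. The other 2 are shared, 1 by Klra9 and Klra3 and 1 by Klra22 and Klra1. The cells were thymic invariant natural killer T (iNKT) cells, a T cell lineage with a semi-invariant receptor for lipids on CD1d, sorted from C57BL/6 mice 6 weeks old. All cells bound tetramer and lacked CD24 and NK1.1. Stage 2 cells carried CD44 and stage 1 cells did not. The groups were Id3KO stage 2 (3 arrays), WT stage 2 (3 arrays), Id3KO stage 1 (2 arrays) and WT stage 1 (2 arrays), and the labels call the replicates biological. Id3KO mice lack Id3, an inhibitor of the E protein transcription factors. How the Id3 allele was made, and whether a sample pooled several mice, was not stated in the labels.

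Ly49 receptors are lectin-like dimers on natural killer (NK) cells and on some T cells, and they read MHC class I molecules on other cells. Inhibitory members carry a tyrosine motif in the cytoplasmic tail that recruits phosphatases. Activating members lack it and signal through the adaptor DAP12 (Tyrobp), in part also DAP10 (Hcst). In mice the genes lie side by side in the NK gene complex, each NK cell expresses only some of them, and on iNKT cells Ly49 receptors are known mostly from the later NK1.1-positive stage, which was not sorted here.

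Since several members moved together, their promoters are shown. RefSeq (GRCm38.p6) windows of 300 bases, from 250 before to 50 after the start, were found for 6 of the 7 symbols, as 8 windows. Klra22 had none, and the RefSeq gene table lists that symbol as a synonym of Klra1. Each window below lies on the minus strand of chromosome 6 and is written 5′ to 3′ along the gene, with matches to the E-box CANNTG, the core motif that E proteins bind, in capitals. The windows of Klra9, Klra3, Klra8 and Klra7 (the first of 2 starts for each of the last pair) belong to the genes of the 3 probe sets with the largest genotype differences, and that of Klra5 to a gene whose probe set was not called in any comparison.
Klra9, chr6:130193063-130193362: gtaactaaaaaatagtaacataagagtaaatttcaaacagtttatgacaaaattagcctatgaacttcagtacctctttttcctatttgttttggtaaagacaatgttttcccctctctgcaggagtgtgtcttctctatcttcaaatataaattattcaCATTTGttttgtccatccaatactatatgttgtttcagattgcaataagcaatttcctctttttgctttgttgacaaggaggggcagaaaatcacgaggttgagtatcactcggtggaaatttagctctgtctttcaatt
Klra3, chr6:130337577-130337876: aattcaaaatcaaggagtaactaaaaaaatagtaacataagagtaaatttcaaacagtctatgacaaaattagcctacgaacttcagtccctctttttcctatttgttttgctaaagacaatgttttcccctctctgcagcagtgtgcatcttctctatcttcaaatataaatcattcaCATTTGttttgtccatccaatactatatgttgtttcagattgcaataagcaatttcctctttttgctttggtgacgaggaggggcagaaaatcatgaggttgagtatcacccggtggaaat
Klra8, chr6:130129849-130130148: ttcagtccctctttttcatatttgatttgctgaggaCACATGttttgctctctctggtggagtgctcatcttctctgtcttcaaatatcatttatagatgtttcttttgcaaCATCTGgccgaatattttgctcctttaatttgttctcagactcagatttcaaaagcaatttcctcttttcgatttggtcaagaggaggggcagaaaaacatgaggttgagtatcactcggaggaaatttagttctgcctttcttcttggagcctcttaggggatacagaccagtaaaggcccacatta
Klra7, chr6:130233273-130233572: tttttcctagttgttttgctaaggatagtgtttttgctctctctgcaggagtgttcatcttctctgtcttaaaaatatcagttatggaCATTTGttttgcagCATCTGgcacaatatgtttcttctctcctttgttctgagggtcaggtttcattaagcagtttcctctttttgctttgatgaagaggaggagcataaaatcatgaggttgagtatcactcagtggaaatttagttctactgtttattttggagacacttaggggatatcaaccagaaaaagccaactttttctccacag
Klra5, chr6:129913175-129913474: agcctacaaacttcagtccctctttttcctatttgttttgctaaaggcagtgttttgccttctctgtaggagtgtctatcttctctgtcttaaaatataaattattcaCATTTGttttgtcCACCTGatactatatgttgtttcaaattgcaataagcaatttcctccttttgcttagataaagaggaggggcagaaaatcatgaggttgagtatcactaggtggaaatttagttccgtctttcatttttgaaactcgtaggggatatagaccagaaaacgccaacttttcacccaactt

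The Klra9 and Klra3 windows were 95.4% identical over their 284 overlapping columns, and those of the first Klra8 and Klra7 starts 80.6% over 294. The Klra5 window was 88.3% identical to that of Klra9 over 248 columns. That of Klra1 was 52.6% to 62.2% identical to the others, the highest over 37 columns only. The window of the second Klra7 start was 51.5% to 57.1% identical to the others. The letters CATTTG recurred in Klra9, Klra3, Klra7 and Klra5, and CATCTG in Klra8 and Klra7. An E-box was present in 8 of 8 windows, against 72.3% of all 32851 promoter windows of this length. The 8 windows belong to 6 genes and are not independent. The pair of Klra8 windows overlaps by 237 identical bases, so the CATCTG they share counts in both. The narrower form CAGNTG, read on both strands and so also as CANCTG, was in 6 of 8 windows and in 51.4% of all windows. It was missing from Klra9 and Klra3. The motifs TGTGGT (Runx), GGTGTG (T-box) and CTTTGA (TCF/LEF), each searched on both strands, were found in 1, 1 and 2 windows, against 16.8%, 19.0% and 16.0% of all windows. The matches are a description of letters in these windows. E-boxes of the narrower form are a subset of CANNTG, and the other motifs did not overlap it in these windows.

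**Figure D1:**
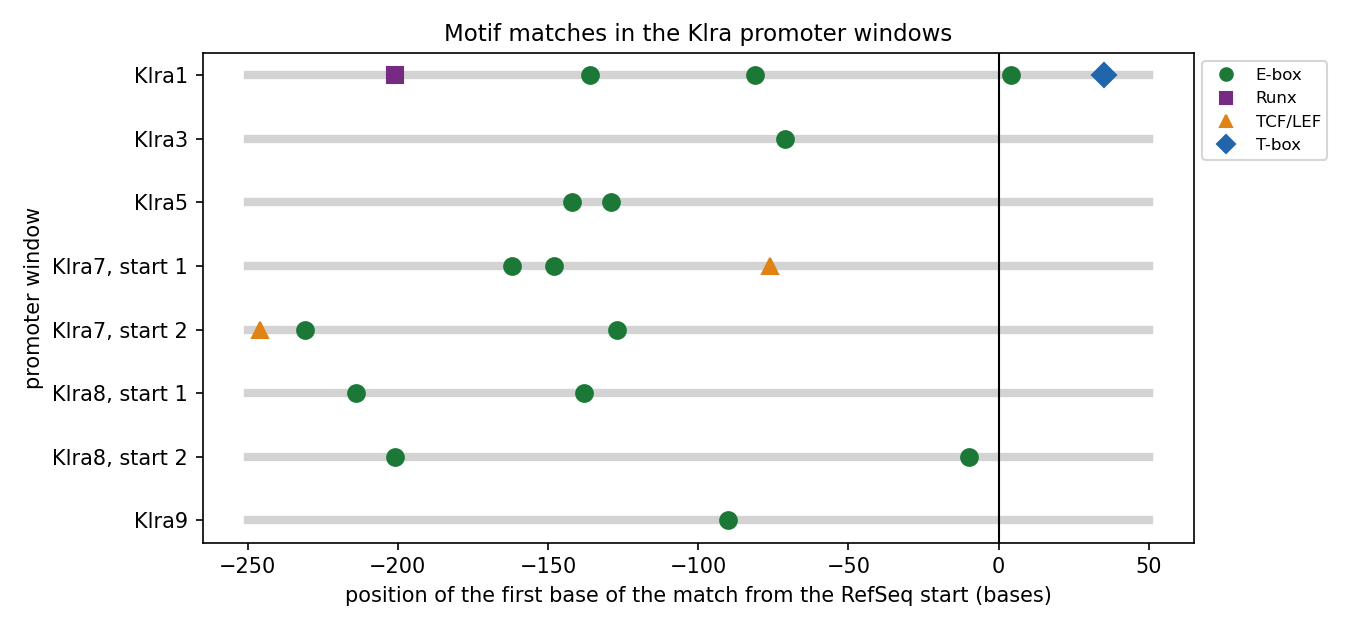
Positions of motif matches in the 8 Klra promoter windows, each drawn as a grey bar from 250 bases before to 50 bases after the RefSeq start (x axis, bases; each window on its own row). E-boxes (circles) occur in every window, and the Runx and T-box matches lie in that of Klra1.

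Each value is the linear intensity of a probe set after the authors' RMA normalization, and log2 was taken for the tests. Array medians lay between 54.8 and 55.5, and the small number of arrays limits the precision of every value. A probe set was tested when at least 2 arrays exceeded the table's median, 5.78 in log2 or 55.1 in intensity, called the filter level here. Of the 7 probe sets 5 passed. Klra22 and Klra1 passed through 2 Id3KO stage 2 arrays alone and Klra5 through 2 WT stage 2 arrays alone, so a difference in those groups was built into their passing. Klra8 exceeded the level on 1 WT array only, so it passed through its Id3KO arrays. A higher value in Id3KO cells was thus built into its passing too. Id3, the targeted gene, had 54.2 to 69.8 on the 5 Id3KO arrays and 818 to 1289 on the 5 WT arrays. Differences are from limma, with the standard error (SE) of its moderated fit, and a result counts as called when its adjusted p is under 0.05. Counts at an unadjusted p under 0.05 are given without the share of all tested probe sets at that level. They cannot be weighed, and no result is drawn from them. Of the 7 probe sets 5 are of the type marked x_at, whose probes can bind related transcripts: that of Klra9 and Klra3, that of Klra8, that of Klra22 and Klra1, and the pair of Klra7. The source gene of their signal is uncertain within the family.

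Signal for Klra8 and for Klra9 and Klra3 was higher in Id3KO cells at both stages, and that for Klra7 and for Klra22 and Klra1 was called higher at stage 2. At stage 2, 4 of the 5 tested Ly49 probe sets were called higher and 0 lower, against 1.82% of all tested probe sets called higher and 2.39% called lower. At stage 1, 2 were called higher and 0 lower, against 0.459% and 0.343% of all tested probe sets. The 4 at stage 2 include that of Klra22 and Klra1, which was tested only because its Id3KO stage 2 arrays were high, so 3 remain without it. Klra8, counted at both stages, was likewise tested only because its Id3KO arrays were high. Without it too, Klra9 and Klra3 and the brighter Klra7 probe set remain at stage 2, and Klra9 and Klra3 at stage 1. In these sorted populations, more cells with a receptor and more RNA per cell cannot be told apart.

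The probe set of Klra9 and Klra3, which encode the inhibitory receptors Ly49I and Ly49C, exceeded the filter level on all 10 arrays. At stage 2 its intensity was 4171, 3855 and 4285 in Id3KO cells, against 789, 1381 and 1343 in WT cells. At stage 1 it was 4715 and 3802 in Id3KO cells, against 549 and 309 in WT cells. The 5 Id3KO arrays lay close together whatever the stage, and the lowest of them was above the highest WT array at either stage. The differences were 3.61-fold at stage 2 (log2 1.85 ± 0.26, SE, limma adjusted p = 0.00577) and 10.3-fold at stage 1 (log2 3.36 ± 0.31, SE, limma adjusted p = 0.00415). A fit of the 4 stage 1 arrays by themselves ended the call at stage 1 (adjusted p = 0.0695).

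Klra8 encodes Ly49H, an activating receptor that recognises a glycoprotein of mouse cytomegalovirus. Its probe set had 196, 349 and 273 in Id3KO stage 2 cells, against 41.7, 56.9 and 43.3 in WT stage 2 cells. In stage 1 cells it had 676 and 345 in Id3KO, against 44.2 and 38.9 in WT. Of the 5 WT arrays, 1 exceeded the filter level, while all 5 Id3KO arrays did, so the WT values are near background and no fold of RNA is given. The fitted differences between the deposited values were, in log2, 2.50 ± 0.28 (SE, limma adjusted p = 0.00200) at stage 2 and 3.54 ± 0.34 (SE, limma adjusted p = 0.00417) at stage 1. The stage 1 call ended in a fit of the 4 stage 1 arrays by themselves (adjusted p = 0.0719) and without WT stage 1 replicate 1 (adjusted p = 0.0583).

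Over the 10 arrays the log2 values of Klra8 and of the Klra9 and Klra3 probe set had a Pearson's r of 0.90, given as a description, since the points share their groups. Id3KO stage 1 replicate 1 was the highest Id3KO array for both, and in WT cells both were highest on stage 2 replicate 2 and lowest on stage 1 replicate 2. The order of the other 4 Id3KO arrays differed, with Klra8 highest among them on stage 2 replicate 2, where the Klra9 and Klra3 probe set was second to lowest. Whether the Klra8 probes also bind RNA of its neighbours was not tested.

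Klra7 encodes Ly49G, an inhibitory receptor. The brighter of its probe sets had 239.8, 246 and 127 in Id3KO stage 2 cells, against 72.8, 64.0 and 66.25 in WT stage 2 cells. In stage 1 cells it had 136 and 132 in Id3KO, against 56.9 and 32.25 in WT. No Id3KO array overlapped with the WT arrays of its stage. The difference was 2.90-fold at stage 2 (log2 1.53 ± 0.27, SE, limma adjusted p = 0.0172), and it stood at log2 1.65 ± 0.33 (SE) at stage 1, which did not pass (limma adjusted p = 0.0763). The call at stage 2 was lost without WT replicate 2 (adjusted p = 0.0640), WT replicate 3 (0.0663), Id3KO replicate 1 (0.0572) or Id3KO replicate 2 (0.0598) of that stage, while Klra7 passed at stage 1 without Id3KO stage 2 replicate 3 (0.0204), with the stricter filter (0.0453) and with array weights (0.0462). The dimmer probe set of Klra7 had 40.3 to 43.5 over the 10 arrays, below the level on each. The pair of probe sets thus disagreed.

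Klra22 is a symbol used for Ly49V, an inhibitory receptor described in other strains, and Klra1 encodes Ly49A, also inhibitory. Their shared probe set had 67.3, 52.7 and 55.5 in Id3KO stage 2 cells, against 35.8, 32.5 and 35.1 in WT stage 2 cells. In stage 1 cells it had 44.9 and 46.0 in Id3KO, against 34.1 and 30.5 in WT. The genotypes did not overlap at either stage. All 5 WT arrays and both Id3KO stage 1 arrays were below the filter level, so no fold of RNA is given. The fitted log2 difference between the deposited values was 0.76 ± 0.10 (SE, limma adjusted p = 0.00523) at stage 2, and 0.50 ± 0.13 (SE, limma adjusted p = 0.155) at stage 1, which did not pass. The probe set of Klra1 alone had 35.55 to 39.0 over the 10 arrays, and without the filter its log2 difference was 0.02 ± 0.05 (SE) at stage 2 and -0.03 ± 0.06 (SE) at stage 1.

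Klra5 encodes Ly49E, an inhibitory receptor known from fetal NK cells and some T cells. Its probe set had 43.9, 46.5 and 44.5 in Id3KO stage 2 cells, against 57.1, 77.3 and 51.55 in WT stage 2 cells. In stage 1 cells it had 48.1 and 43.7 in Id3KO, against 43.4 and 43.3 in WT. WT stage 2 was the one group with arrays above the filter level, 2 of 3, and the Id3KO arrays of that stage lay below all 3. The log2 difference at stage 2 was -0.44 ± 0.14 (SE, limma adjusted p = 0.123) and did not pass. Other Klra genes on the array were Klra2, Klra16 and Klra17, and their 4 probe sets had 29.3 to 43.75 on all arrays and were not tested. Klra4, Klra6 and Klra10, which lie among the members in the RefSeq gene order, were not analysed here.

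**Figure D2:**
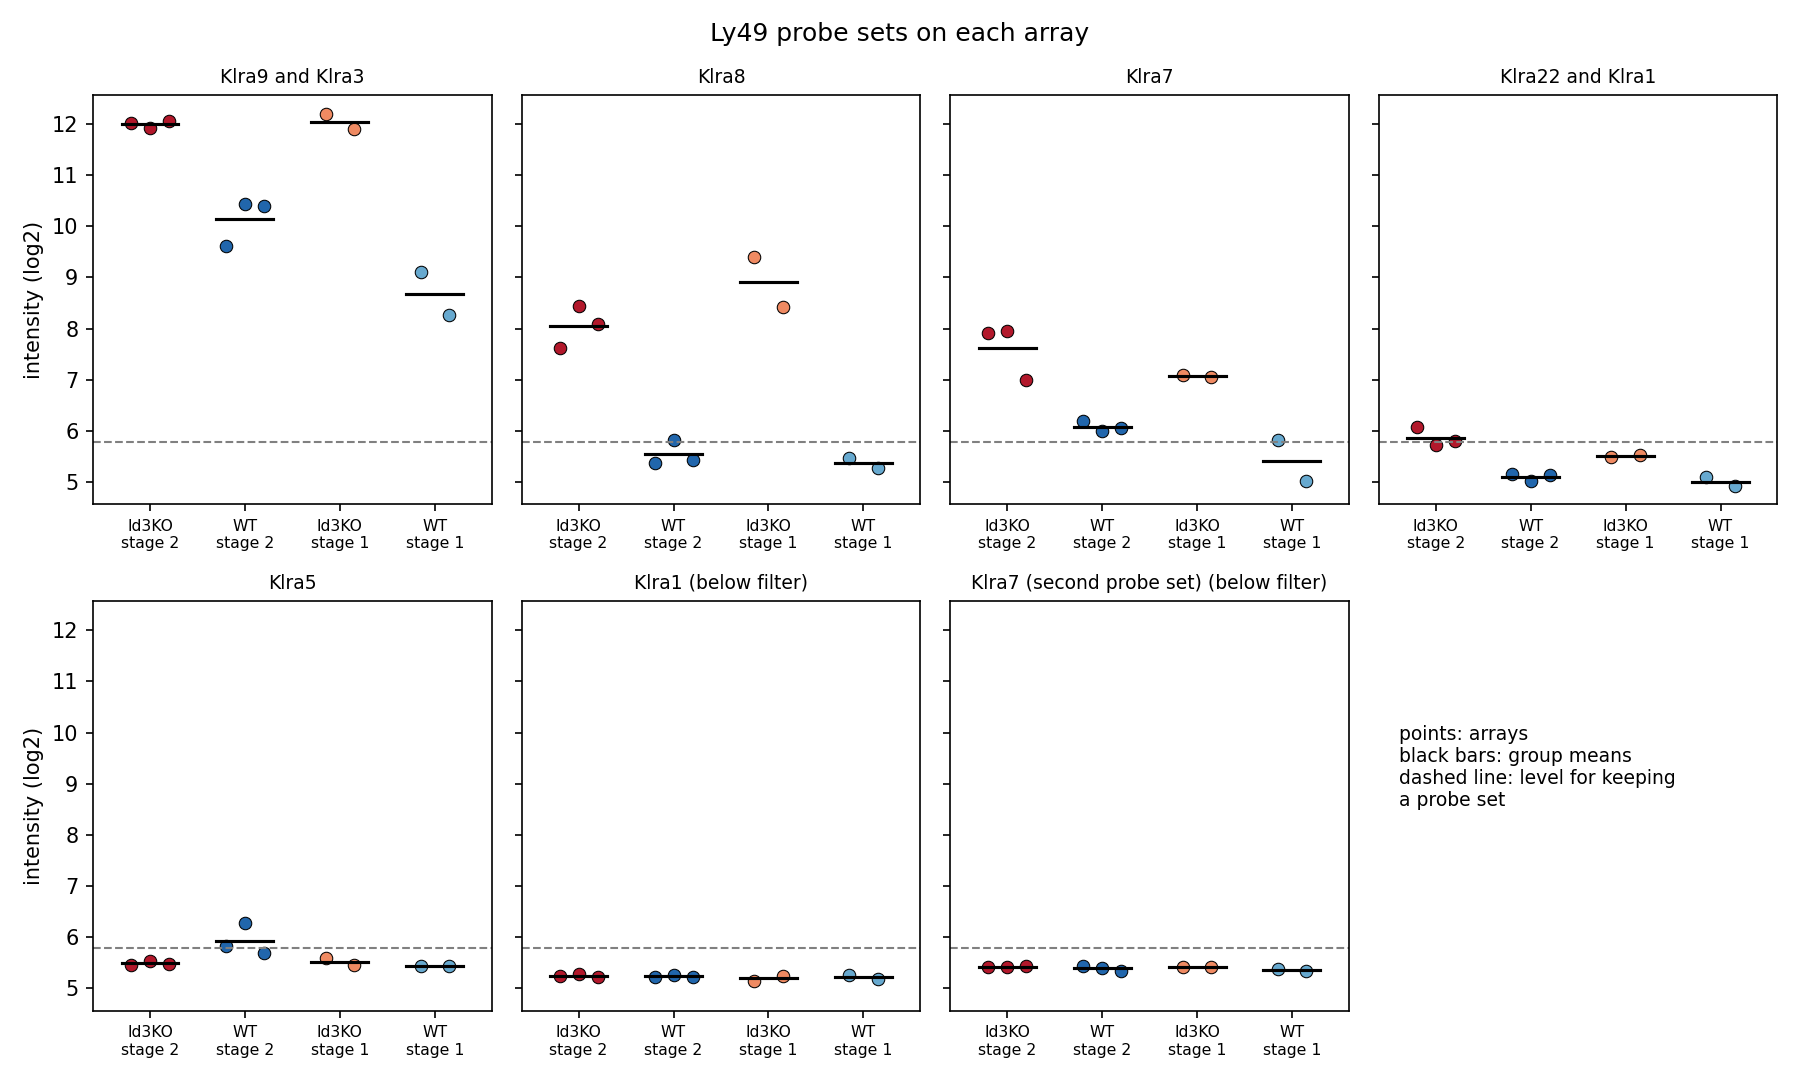
Intensity (log2, y axis) of the 7 Ly49 probe sets on each of the 10 arrays, by group (x axis), with group means as black bars and the filter level, 5.78, as a dashed line. The Id3KO arrays stand above the WT arrays of their stage for Klra9 and Klra3, Klra8, the brighter Klra7 probe set, and Klra22 and Klra1.

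Arrays of the genotypes did not overlap, with Id3KO higher, for 4 of the 7 probe sets at stage 2, against 10.9% of all tested probe sets, and with Id3KO lower for 1 (Klra5), against 10.5%. Klra8 and the Klra22 and Klra1 probe set, among the 4, passed the filter through Id3KO arrays, and Klra5 through WT stage 2 arrays. Those directions were thus built into their passing, and the counts are a description only. At stage 1 the genotypes did not overlap with Id3KO higher for 6 of the 7, against 18.7% of the tested probe sets. These 6 include Klra8, with the same limit, and Klra5 (0.08 on the log2 scale) and the dimmer probe set of Klra7 (0.06), whose differences are small. The dimmer probe set of Klra7 and that of Klra1 alone were not tested, so the 7 and the shares cover unlike sets.

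The comparison of stages asks whether Ly49 RNA changes as cells acquire CD44. In WT cells the Klra9 and Klra3 probe set was higher on all 3 stage 2 arrays than on either stage 1 array, a 2.76-fold difference (log2 1.46 ± 0.29, SE) that did not pass (limma adjusted p = 0.170, with 0.0549 as the lowest and 0.456 as the highest in other settings). Klra7 stood at 0.66 ± 0.31 and Klra5 at 0.49 ± 0.15 (log2, SE), also without overlap between the stages and without a call (limma adjusted p = 0.639 and 0.460). Klra5 passed the filter through 2 WT stage 2 arrays alone, so a higher stage 2 value in WT cells was built into its passing. Non-overlap with stage 2 higher was seen for 11.8% of the tested probe sets. In Id3KO cells the Klra9 and Klra3 probe set differed by -0.05 ± 0.29 (log2, SE) between stage 2 and stage 1. Klra8 differed by -0.86 ± 0.31 and Klra7 by 0.54 ± 0.31. Klra22 and Klra1 differed by 0.36 ± 0.11, the one of the 5 tested without overlap between the stages there. Their probe set passed the filter through 2 Id3KO stage 2 arrays alone, so a higher stage 2 value in Id3KO cells was built into its passing. Stage 2 was higher without overlap for 9.45% of all tested probe sets. Limma called 0 of the 5 tested members in either genotype, with 2 in each at an unadjusted p under 0.05, and over all tested probe sets it called 0.016% in WT and 0% in Id3KO. Klra5 is among the 2 in WT, and Klra22 and Klra1 among the 2 in Id3KO, with the limits just given.

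The genotype difference of Klra9 and Klra3 at stage 2 minus that at stage 1 was -1.51 ± 0.40 (log2, SE, limma adjusted p = 0.553), that of Klra8 -1.04 ± 0.44 (0.704), that of Klra7 -0.11 ± 0.43 (0.976), that of Klra22 and Klra1 0.26 ± 0.16 (0.781) and that of Klra5 -0.52 ± 0.21 (0.698). None of the 5 passed limma's test of the interaction (3 at an unadjusted p under 0.05), so the genotype effect was not shown to differ between the stages. WT values below the filter level enter those of Klra8, Klra7, Klra5, and Klra22 and Klra1. The interaction was called for 0% of all tested probe sets. For the Klra9 and Klra3 probe set, the WT groups differed more from each other than the Id3KO groups did, and the order of the means was Id3KO stage 1, Id3KO stage 2, WT stage 2 and WT stage 1, of which the first 2 overlapped.

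**Figure D3:**
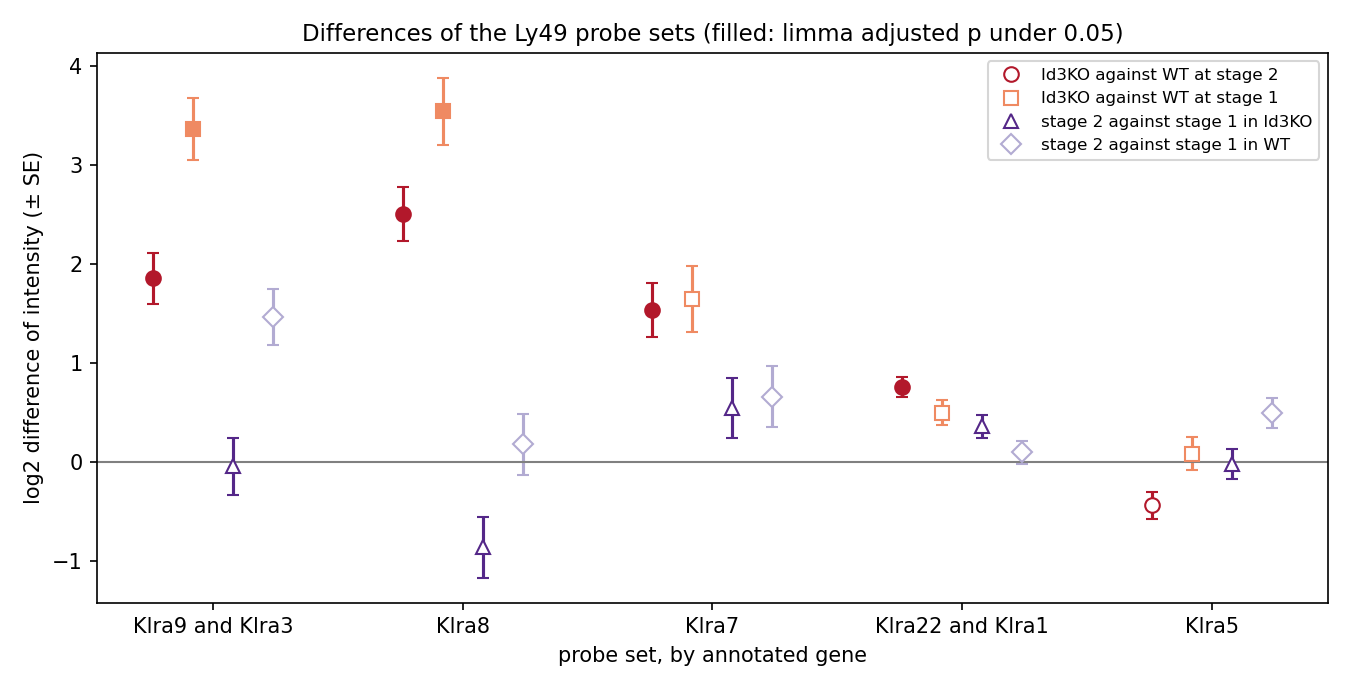
Log2 differences (y axis, ± SE of the limma fit) of the 5 tested Ly49 probe sets (x axis), between genotypes at each stage and between stages in each genotype. Filled symbols passed an adjusted p of 0.05, and these are the genotype differences of 4 probe sets at stage 2 and of 2 at stage 1.

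The genes whose pattern was most like that of Klra8 over the 10 arrays, by Pearson's r and with no test, were Eomes (0.98), Enox1 (0.98), Gzma (0.97), Caskin2 (0.97) and Sgk1 (0.97). Eomes is a T-box transcription factor needed by NK cells, and Gzma encodes granzyme A. The probe set of Eomes concerned, the dimmer of 2, was higher in Id3KO cells by 0.91 ± 0.14 at stage 2 (log2, SE, limma adjusted p = 0.00999) and by 1.44 ± 0.17 at stage 1 (0.0118). The stage 1 call was lost in 4 of 20 other settings, which were the fit of the 4 stage 1 arrays (0.0760) and those without WT stage 1 replicate 1 (0.0982), WT stage 1 replicate 2 (0.0852) or Id3KO stage 1 replicate 1 (0.0713). The WT means of 5.32 and 5.33 lay below the filter level. The brighter Eomes probe set, at 0.61 and 1.33, did not pass (0.221 and 0.0929). It exceeded the filter level on Id3KO arrays only, so a higher Id3KO value was built into its being tested. Those most like Klra7 were Nck2 (0.98), Lrmp (0.96), Tox2 (0.95), Dedd2 (0.95) and Chst2 (0.94). The points of both rankings are the same 10 arrays in 4 groups, so any gene that separates the genotypes ranks high.

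Genes described as regulators of Ly49 or other NK receptor genes went in both directions. Of 19 tested, 2 rose and 4 fell at stage 2 while 13 were not called. The median was -0.22, against 0.01 over all 11951 tested genes, of which 2.36% were called higher and 3.22% lower. Gfi1, a zinc finger repressor, rose by 1.12 ± 0.19 (log2, SE, limma adjusted p = 0.0133), and Lef1, a partner of TCF-1, by 0.90 ± 0.09 (0.00131). Those that fell were Ikzf3, the factor Aiolos (-2.45), Runx3, a Runt factor (-2.09), Tbx21, the T-box factor T-bet (-1.79), and Il2rb, the shared receptor chain for interleukins 2 and 15 (-0.95). The calls of Ikzf3, Runx3, Tbx21 and Lef1 held in all 20 other settings. That of Il2rb was lost in 10, among them 7 of the 10 fits without 1 array (adjusted p up to 0.117), and that of Gfi1 in 2, among them the fit without WT stage 2 replicate 3 (0.0588). Dimmer probe sets of Runx3 (-0.08), Il2rb (-0.25) and, of 2 for Ikzf3, the dimmest (-0.43) did not pass. Id2, an Id3 relative counted as not called from its brightest probe set (-0.70, adjusted p = 0.0583), had a pair of dimmer ones that were called lower (-0.76 and -0.62, 0.0368 and 0.0273). At stage 1 Gfi1 rose (1.46 ± 0.23, SE, 0.0300) and Runx3 fell (-1.30 ± 0.15, SE, 0.0100), with 17 not called, a median of -0.18 against -0.02 over all genes, and 0.594% called higher and 0.46% lower. The stage 1 call of Gfi1 was lost in 7 settings, with any of the 4 stage 1 arrays or WT stage 2 replicate 3 left out (adjusted p up to 0.174). That of Runx3 was lost in 3, among them the fits without either WT stage 1 array (up to 0.0937). The 4 called Ly49 probe sets had positive differences at stage 2, as had the called ones of Gfi1, Lef1 and Eomes (its dimmer one). That Eomes probe set was picked for its correlation with Klra8 and its WT means lay below the filter level, so its direction adds no separate evidence. The called ones of Ikzf3, Runx3, Tbx21, Il2rb and Id2 (its dimmer pair) had negative differences.

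The neighbouring lectin genes of the NK gene complex went in both directions at stage 2. Of 9 tested at stage 2, Cd69, an early activation antigen, rose (0.56 ± 0.12, SE, limma adjusted p = 0.0336), while Klrd1, which encodes CD94 (-1.04 ± 0.22, SE, 0.0379), and the NKR-P1 family members Klrb1f (-0.74) and Klrb1b (-0.61) fell, with 5 not called and a median of -0.05. Over all genes 2.36% were called higher and 3.22% lower, with a median of 0.01. Among the 5 lectin genes not called, Klrb1a, also of the NKR-P1 family, stood at 1.06 ± 0.25 (log2, SE, limma adjusted p = 0.0536), with all Id3KO arrays above the WT arrays. At stage 1, 0 of the 9 were called by limma (1 at an unadjusted p under 0.05), with a median of 0.27. Over all genes 0.594% were called higher and 0.46% lower there, with a median of -0.02. The calls of Klrd1, Klrb1b and Cd69 at stage 2 were lost in 11 of 20, 13 of 19 and 7 of 20 other settings. These include 6, 7 and 6 of the 10 fits without 1 array, with adjusted p up to 0.106, 0.153 and 0.123. Klrb1f lost its call without WT stage 2 replicate 1 or 3 (up to 0.0812). Klrb1b passed the filter through 2 WT stage 2 arrays alone, so a lower value in Id3KO cells was built into its passing.

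Of the partners of Ly49 signalling, limma called 0 of 13 at stage 2 (6 at an unadjusted p under 0.05) and 0 of 13 at stage 1 (3). The share of all genes at the unadjusted level is not given, so the 6 and the 3 cannot be weighed. Tyrobp, the adaptor DAP12 through which Ly49H signals, had 45.1 to 51.8 over the 10 arrays and was below the filter level on each. Hcst, the adaptor DAP10, was well above it, at 264.5, 235 and 261 in Id3KO stage 2 cells and 319, 322 and 302 in WT stage 2 cells (log2 -0.31 ± 0.08, SE, limma adjusted p = 0.0732). Ptpn6, the phosphatase SHP-1 that inhibitory Ly49 receptors recruit, stood at 0.14 at stage 2 and 0.24 at stage 1 (log2, adjusted p = 0.594 and 0.574). Among the class I ligands and the genes that load them, 5 of 9 fell at stage 2 and 0 rose, against 3.22% and 2.36% of all genes, with a median of -0.42 against 0.01. They were H2-K1 (-0.56 ± 0.09, SE, limma adjusted p = 0.0123), H2-D1 (-0.42), B2m (-0.38), the peptide transporter Tap1 (-0.53) and its partner Tapbp (-0.56). Class I probe sets can bind RNA of several H2 genes. Of the other tested probe sets, 2 of 3 for H2-K1 and 2 of 6 for H2-D1 were called lower too, while those of B2m, Tap1 and Tapbp did not pass. H2-K1 kept its call in each of the 10 fits without 1 array, Tap1 lost it in 1 (without WT stage 2 replicate 3, adjusted p = 0.0599), H2-D1 in 5, Tapbp in 7 and B2m in 9 (up to 0.106, 0.123 and 0.146). With the genotype difference averaged over the stages, H2-K1 was at -0.24 (0.113) and H2-D1 at -0.15 (0.289), and neither was called. At stage 1 limma called 0 of these 9 (3 at an unadjusted p under 0.05).

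**Figure D4:**
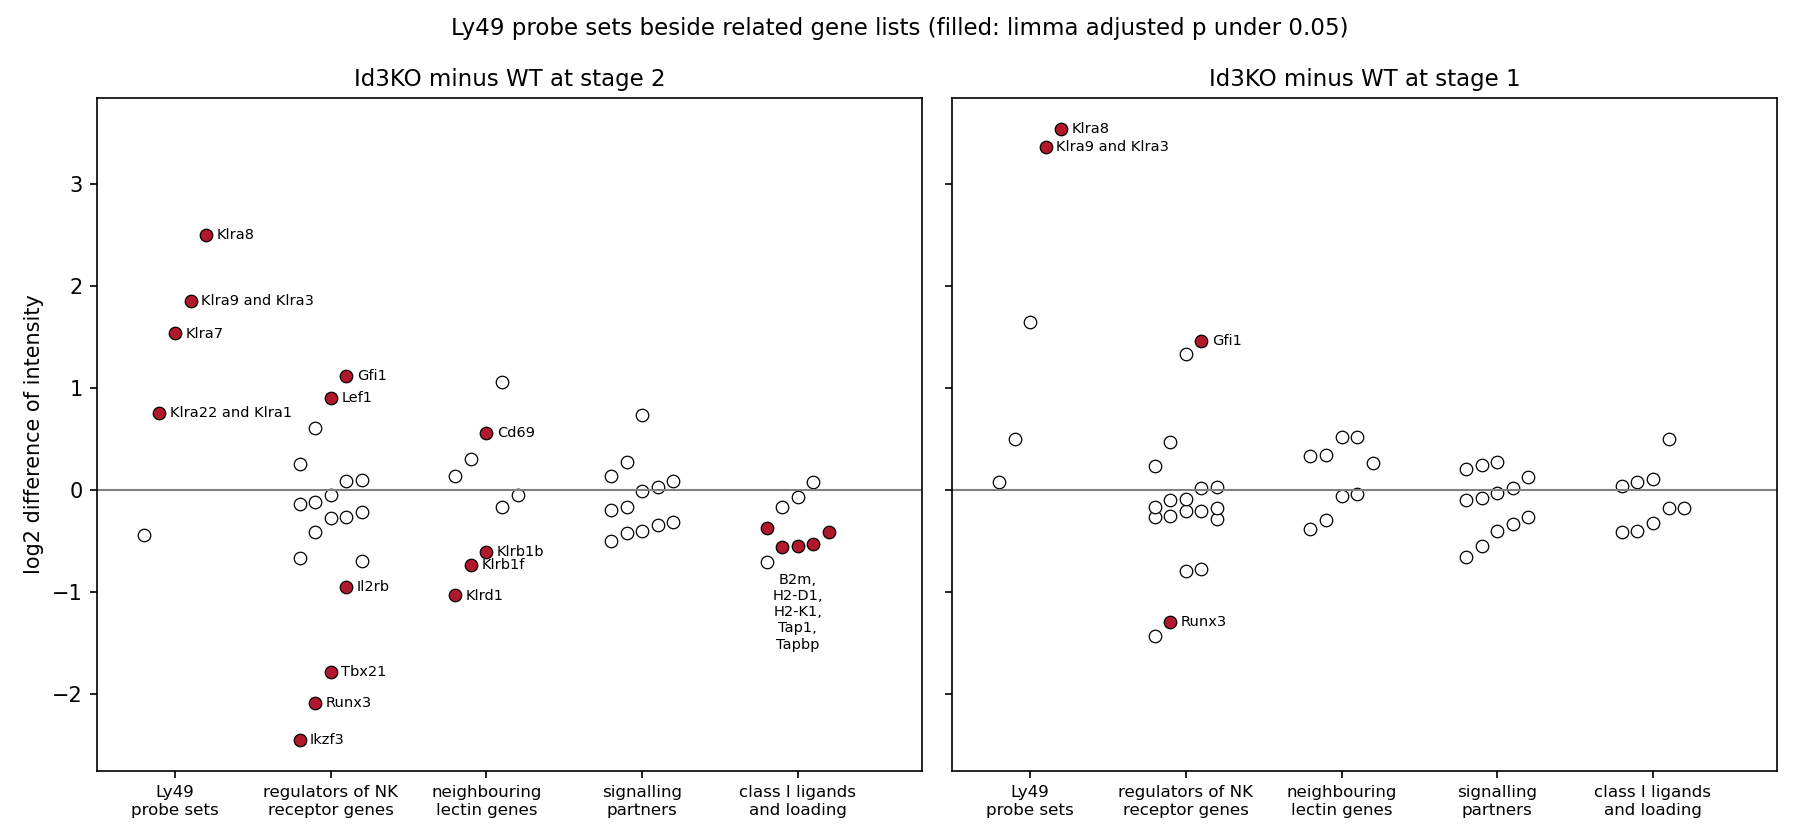
Log2 differences between Id3KO and WT cells (y axis) at stage 2 (left) and stage 1 (right) for the 5 tested Ly49 probe sets and for the tested genes of 4 lists (x axis), 1 point per probe set or gene; filled points passed an adjusted p of 0.05 and are named. Ly49 points lie mostly above 0, while the named regulators, lectins and class I genes are spread on both sides of it or below.

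Markers of cells that carry Ly49 receptors or could enter the sort were compared too. Of 9 NK cell markers 6 were on the array with a probe set of their own and 4 passed the filter. Limma called 0 of these 4 at either stage (1 at an unadjusted p under 0.05 at each). Ncr1, which defines NK cells, had 40.5 to 50.3 and Tyrobp 45.1 to 51.8 over the 10 arrays, below the level on each, and Prf1 had 52.6 to 64.8. The summed intensity of the 6 markers was 371 to 483 in Id3KO stage 2 cells, 348 to 353 in WT stage 2 cells, 348 to 360 in Id3KO stage 1 cells and 317 to 357 in WT stage 1 cells. Fcer1g, an adaptor that myeloid cells also express, made most of the spread at stage 2, with 109, 207 and 129 in Id3KO cells against 82.2, 87.5 and 87.6 in WT cells. The Id3KO stage 2 array with the most Fcer1g, replicate 2, also had the most Klra8 and Klra7 of that group, and Klra8 had the same order as Fcer1g over its 3 arrays, while the Klra9 and Klra3 probe set was lowest on replicate 2. Without that array the stage 2 differences were 2.30 for Klra8 (log2, limma adjusted p = 0.00814), 1.90 for Klra9 and Klra3 (0.0205), 1.37 for Klra7 (0.0598, not called) and 0.83 for Klra22 and Klra1 (0.00917). At stage 1 Fcer1g had 69.5 and 75.2 in Id3KO cells and 87.8 and 68.8 in WT cells, which overlap. Fcgr3, an Fc receptor of NK and myeloid cells, had 75.4 and 80.6 in Id3KO stage 1 cells against 54.0 and 48.0 in WT stage 1 cells, without overlap (log2 0.62 ± 0.12, SE, limma adjusted p = 0.0715, not called). The part of cells with these markers in the Ly49 result was not tested. Of the 6 T and iNKT cell markers all were tested, with sums of 9928 to 11526 in Id3KO stage 2 cells, 9427 to 10252 in WT stage 2 cells, 11148 to 11782 in Id3KO stage 1 cells and 9890 to 10623 in WT stage 1 cells. Of these, Cd28, a costimulatory receptor, rose at stage 2 (0.59 ± 0.12, SE, limma adjusted p = 0.0350). Limma called 0 of 4 B cell markers at either stage (1 at an unadjusted p under 0.05 at stage 2, 0 at stage 1) and 0 of 5 myeloid and dendritic cell markers (1 at each stage).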

How the data were processed

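RNA of 10 sorted samples was hybridised to Affymetrix arrays, as biotinylated cRNA from a 2-cycle protocol per the labels. The deposited values are intensities on a linear scale. Per the submitters' processing notes the authors used RMA, version not given. The scale was read from the values (29 to 15399). Log2 was taken here. Of 45037 probe sets, 25061 passed the filter (log2 above 5.78 on at least 2 arrays), of which 20942 name a single gene in the platform annotation, 593 name several genes, and 3526 are unnamed there. The model, in limma 3.58.1 (R 4.3.3), gave each group its mean and used all 10 arrays (6 residual and 2.80 prior degrees of freedom), two-sided, for 5 contrasts, each adjusted by Benjamini and Hochberg over all tested probe sets. Lists use the brightest tested probe set of each of 11951 genes. The fit was tested on simulated data. Promoter windows were aligned with Biopython 1.88, without cost for overhanging ends. Named genes are the members, genes of the lists, and the 5 genes with the highest Pearson correlation with Klra8 and with Klra7. Members and lists were chosen with earlier results of these data known. P-values set a difference of group means against the spread between samples within groups, shared over the 4 groups. Whether that spread is one between single mice is not known. Same-numbered arrays did not consistently deviate together, and the labels do not pair them. Their correlations were -0.135 to 0.133 between genotypes. Between stages they were 0.053 and 0.123 in WT cells, and -0.188 and -0.037 in Id3KO cells. Alternatives were other filters, quantile normalization, median centring, a trended robust prior, array weights, fewer arrays, a replicate block and leaving out each array. No scanner files were used here, so the background correction could not be varied.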

Additional observations from a re-analysis of the deposited data

Results flagged for a closer look

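The probe set of Klra5, which encodes Ly49E, was lower in Id3KO cells at stage 2 and slightly higher at stage 1, without overlap of the arrays. At stage 2 its intensity was 43.9 to 46.5 on the Id3KO arrays, all below the WT arrays at 51.55 to 77.3. At stage 1 it was 43.7 and 48.1 on the Id3KO arrays, both above the WT arrays at 43.3 and 43.4. The interaction was -0.52 on the log2 scale and did not pass limma's test (adjusted p = 0.698, with 0.539 as the lowest in other settings). The stage 1 difference of 0.08 rests on 4 arrays that are all below the filter level. Klra5 passed the filter through 2 WT stage 2 arrays alone, so the stage 2 direction was built into its passing. Of all tested probe sets, 10.5% did not overlap with Id3KO lower at stage 2, and 18.7% did not with Id3KO higher at stage 1. No group had more than 3 arrays, so single arrays could not be tested as outliers within a group.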

How the results depend on the processing

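At stage 2, 3 or 4 Ly49 probe sets were called higher in each of the 20 other settings, and 4 in the fit as reported. Klra8 and the Klra9 and Klra3 probe set were called at stage 2 in all 20, and Klra22 and Klra1 in the 19 that tested it. At stage 1, where 2 were called, the count was 0 when only the 4 arrays compared were fitted (2 residual degrees of freedom remain), 4 with the genotype difference averaged over the stages (chosen after seeing the data), and 1 to 3 when an array was left out, with 1 without WT stage 1 replicate 1. A lone array left in a group was assumed to vary like the other groups. Averaged over the stages, Klra7 was at 1.59 (adjusted p = 0.00377) and Klra5 at -0.18, against 0.08 at stage 1. With the replicate block, 4 and 2 Ly49 probe sets were called at stage 2 and stage 1, as without it; it changed no call of a Ly49 probe set. Crossing the numbers of the Id3KO stage 1 arrays in that block, also chosen after seeing the data, again gave 4 and 2. Signs that turned belonged to differences that were not called. The stage difference of Klra5 in Id3KO cells was 0.038 with either block, and -0.097 to 0.042 when an array was left out, with the sign turned without Id3KO stage 1 replicate 1. That of Klra9 and Klra3 was then -0.20 to 0.11, turned without the same array. The interaction of Klra7 was -0.52 to 0.30, turned without WT stage 1 replicate 2 and, at 0.20, without Id3KO stage 2 replicate 3. The cause was not tested. Over all probe sets, 457 rose and 598 fell at stage 2, against 293 and 333 with only the arrays compared, and 238 to 409 and 264 to 491 when an array was left out. At stage 1, 115 rose and 86 fell, against 16 and 12 with only the arrays compared, 54 and 45 with the replicate block, 547 and 698 averaged over the stages, and 9 to 127 and 6 to 107 when an array was left out, lowest without WT stage 1 replicate 1. Signal near background limits Klra22 and Klra1, Klra5 and the WT side of Klra8 and Klra7.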
